A study of Mus musculus with 18 samples.

Results

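H3K27me3, trimethylation of histone H3 at lysine 27, was compared between headfolds of 129 mouse embryos that developed without vitamin C and headfolds of 129 embryos that developed with it. The comparison rests on 6 of the 18 samples of the study, 3 embryos per diet, chosen because their labels give the 129 background and the H3K27me3 antibody. Their peak lists hold 14789 of the 31753 peaks in the 12 H3K27me3 lists used here, the other 6 lists being of the B6 background. All embryos were Gulo-/- (129S6.B6-Gulo-/- in the study's design text) and were collected at embryonic day 8.5. Gulo encodes L-gulonolactone oxidase, without which mice cannot make vitamin C, so both groups depended on the supply through the dam. The dams with vitamin C had it in the drinking water at 3.3 g/l, and those without were given none. Each diet had 2 embryos labelled female and 1 labelled male. Every embryo carried a different TP number in its label, read here as a timed pregnancy code. The headfolds were dissociated and their cells frozen before use. CUT&Tag was run on 1 headfold per reaction, with an antibody that guides a DNA-cutting transposase to the mark. Peaks were called separately for each library. A headfold holds neural plate, surface ectoderm, mesenchyme and foregut, so fewer cells that carry the mark and less mark per cell cannot be told apart.

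H3K27me3 is written by the methyltransferases EZH1 and EZH2 of Polycomb repressive complex 2 and is found in broad domains over silent developmental regulators, most of which have CpG-rich promoters. In the early head it covers genes of other tissues and of later stages, while regulators active in most cells of the neural plate carry little of it. Vitamin C keeps the iron of a family of dioxygenases reduced. The TET enzymes, which oxidise methylated DNA, and the Jumonji demethylases, some of which remove H3K27me3, belong to that family.

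The lists ran from 1388 to 3171 peaks and overlapped between the diets. With vitamin C the lists held 2909, 1807 and 2533 peaks (replicates 1 to 3), and without it 2981, 1388 and 3171. Covered length was 31.7, 17.8 and 20.5 Mb with vitamin C and 26.2, 6.97 and 25.9 Mb without. Replicate 2 without vitamin C had the fewest peaks, the shortest covered length and the narrowest peaks. Its median peak width was 4.1 kb, against 6.21 to 8.45 kb in the other 5 lists. The number of reads is not part of the lists, so depth is unknown, and list length can follow it.

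Replicate 2 without vitamin C also stood apart in other measures. The X chromosome took 0.666% of its covered length although its label is female, below the males with vitamin C (0.872%) and without (1.06%). The other 3 libraries labelled female had 2.83% and 3.21% with vitamin C and 3.16% without. Of its peaks, 92.7% lay in regions called in all 6 lists, against 34.0% to 59.2% in the other lists. Whether its depth, its label or its chromatin goes with these values was not tested. Most counts by diet below are also given without this library.

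Neither the amount of marked chromatin nor the number of marked genes differed between the diets beyond the spread between embryos. The mean was 2416.3 ± 560.2 peaks with vitamin C and 2513.3 ± 979.2 without (SD, n = 3 each). Tests used the difference of mean log2 values, without minus with, which was -0.01 (exact permutation test, two-sided, p = 1) although the plain mean was higher without vitamin C. Covered length was 23.3 ± 7.37 Mb with and 19.7 ± 11 Mb without vitamin C (SD, n = 3), a log2 difference of -0.43 (exact permutation test, p = 0.8). A gene was called marked where a peak lay within 1 kb of either of its ends. By this rule 2854, 1791 and 2310 protein-coding genes were marked with vitamin C and 2744, 1008 and 2811 without (log2 difference -0.20, exact permutation test, p = 0.8). With 3 embryos against 3 the exact test has 20 relabellings and cannot go below p = 0.1. Without replicate 2 of the group without vitamin C the differences of mean log2 were positive, at 0.38 in peaks (exact permutation p = 0.2), 0.21 in covered length (p = 0.6, exact permutation) and 0.29 in marked genes (exact permutation p = 0.4).

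**Figure D1:**
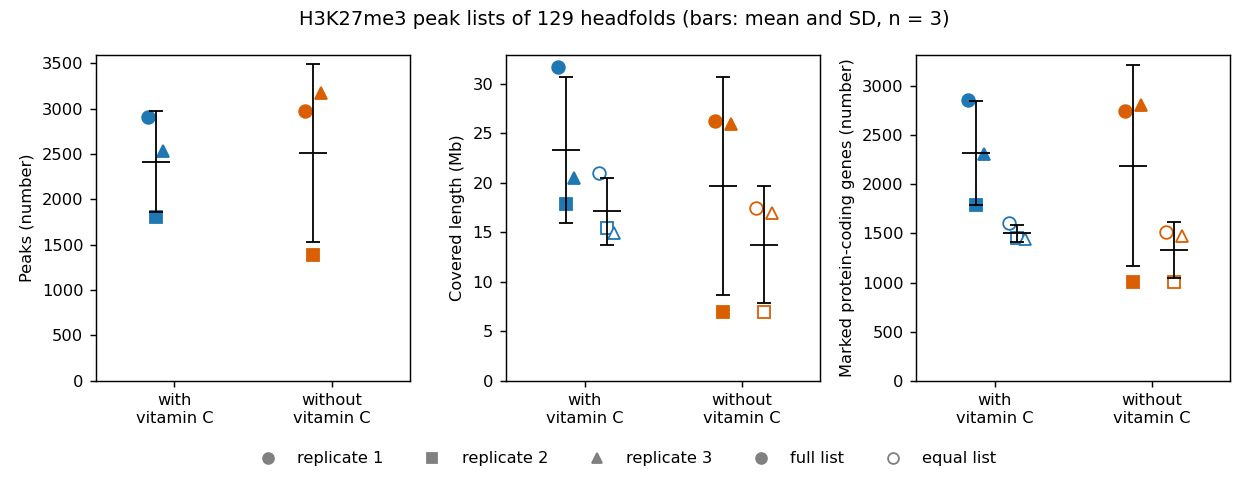
Number of peaks, covered length in Mb and number of marked protein-coding genes (y axes) of each list, by diet (x axis). Filled symbols are full lists, open symbols are lists held to their 1388 peaks with the largest total signal, and bars are mean and SD over 3 embryos. Replicate 2 without vitamin C lies lowest in every panel, at 1388 peaks, 6.97 Mb and 1008 genes.

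Lists of equal length were made by keeping the 1388 peaks with the largest total signal of each list, which is the length of the shortest one. They marked 1602, 1450 and 1445 genes with vitamin C and 1511, 1008 and 1474 without. They covered 21.0, 15.4 and 14.9 Mb with and 17.4, 6.97 and 16.9 Mb without vitamin C. At equal length the 5 other lists therefore lay between 14.9 and 21.0 Mb, whichever diet they came from. The log2 differences were -0.41 in covered length and -0.19 in marked genes (exact permutation p = 0.6 for both). With lists of 1807 peaks from the other 5 libraries they were 0.02 and 0.00 (exact permutation p = 1 for both), a setting added after the lists had been seen.

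Embryos on the same diet did not share more of their marked chromatin than embryos on different diets. The Jaccard index, the shared share of the length 2 lists cover together, averaged 0.509 within and 0.53 between diets (one-sided exact permutation test, p = 0.8). At equal length it was 0.576 within and 0.581 between (one-sided exact permutation p = 0.6). Pairs that include replicate 2 without vitamin C reached at most 0.35 in full lists, and all other pairs at least 0.532.

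Merged by overlap of at least 1 bp, the 6 lists gave 3417 regions, of which 992 (29.0%) were called in all 6 lists and 447 in a single one. A further 649 regions were called in every list but that of replicate 2 without vitamin C. Regions called in more lists with than without vitamin C numbered 900, the reverse 798, and 1719 were called equally often. When that replicate was left out, 253 regions were called in a higher share of lists with vitamin C and 1523 in a higher share of lists without it. In the equal lists described above, again without that replicate, the numbers were 305 and 301. The balance of regions thus turned with this library, and was near even at equal length.

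**Figure D2:**
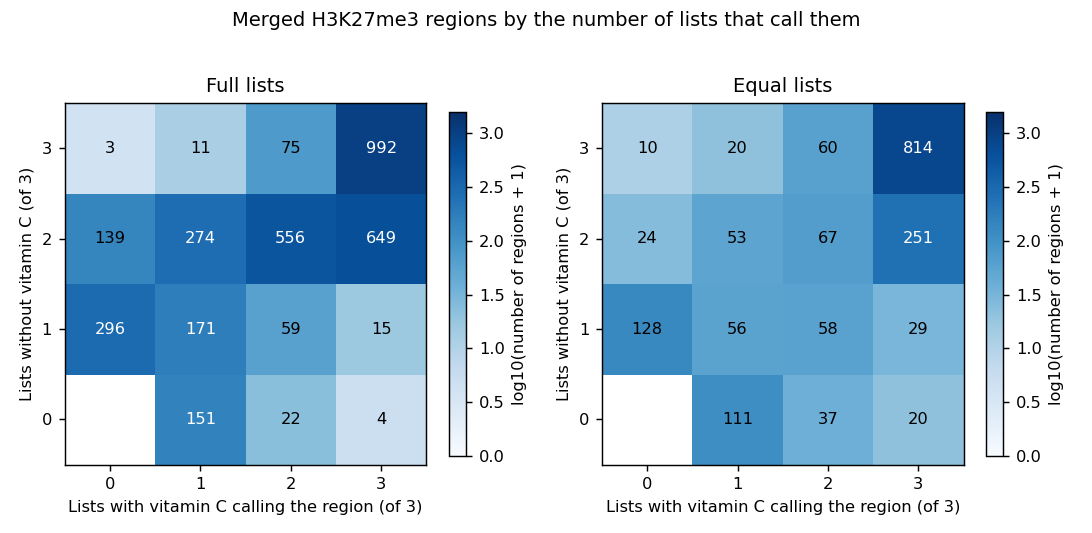
Number of merged regions (numbers and colour, on a log10 scale) by how many of the 3 lists with vitamin C (x axis) and of the 3 lists without it (y axis) call them, for full and equal lists. In the full lists 992 regions are in all 6 lists, 4 in the 3 lists with vitamin C alone and 3 in the 3 lists without it alone.

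The broadest domains shared by the 6 embryos lay over the Hox clusters, whose transcription factors set the identity of hindbrain and trunk segments. The shared region over Hoxc spanned 173.0 kb (chr15:102901040-103074009, mm10) and was covered by 99.6%, 91.8% and 94.8% with vitamin C and 93.4%, 56.7% and 97.9% without. Over Hoxa (133.3 kb) cover was 99.6%, 92.5% and 94.5% with and 97.0%, 64.6% and 100% without vitamin C. Over Hoxb (137.1 kb) it was 99.7%, 92.1% and 90.4% with and 95.8%, 38.8% and 95% without. In all 3 clusters a single list was low, and the other lists of both diets overlapped. The region over Hoxd and Evx2 (125.1 kb), a homeobox gene at the end of that cluster, had the same order, with 50% in replicate 2 without vitamin C and 87.7% to 99.7% in the others. That library held the Hoxc region as 15 separate peaks where the others held 1 or 2, and the Hoxa region as 15 where the others held 1 to 3. Of the 39 Hox genes, 39 were marked in every list but that of replicate 2 without vitamin C, which marked 34 and missed Hoxb2, Hoxc11, Hoxc12, Hoxd9 and Hoxd10.

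The next widest shared regions were a stretch with no annotated gene (chr6:114521954-114639204, 117.3 kb), the locus of Mir9-3, which encodes the neural microRNA miR-9 (70.92 kb), and Zic1 with Zic4, which encode zinc finger factors of the dorsal neural tube (65.66 kb). They were followed by Rhbg, an ammonium transporter gene, with Mir9-1 (61.3 kb), by Nfix and Dand5 (60.2 kb), genes of a nuclear factor and of a Nodal antagonist, and by Plekhg5, Tnfrsf25, Espn and Hes2 (58.1 kb). At Zic1 and Zic4 cover was 93.7%, 71.4% and 83.6% with vitamin C and 97.4%, 45.6% and 99.8% without. The highest pair of values there came from the diet without vitamin C, and so did the lowest value. At Rhbg and Mir9-1 it was 100%, 61.7% and 66.0% with and 69.5%, 41.3% and 66.6% without vitamin C. None of the 10 widest regions separated the diets.

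**Figure D3:**
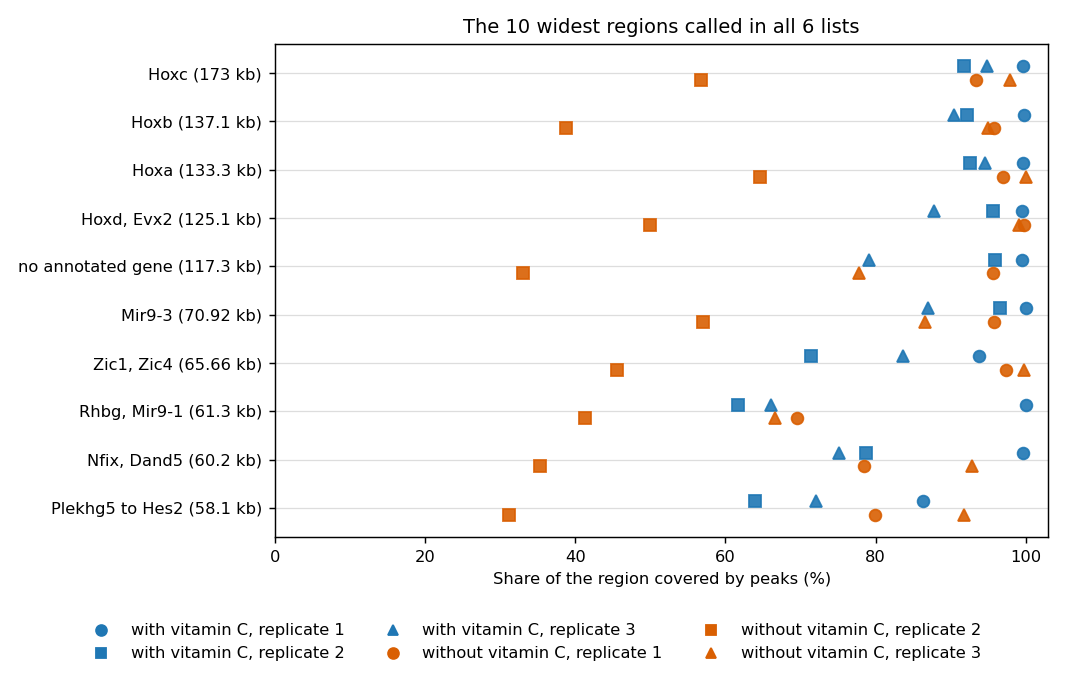
Share of each of the 10 widest shared regions that peaks cover (x axis, percent), by list, with the region's width in kb beside its name. Replicate 2 without vitamin C (orange squares) is lowest in every row, between 31.2% and 64.6%, and the other 5 lists mix.

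Over the 992 shared regions the marked length was shorter in every list without vitamin C than in every list with it at 55 regions (5.54%) and longer at 0. With replicate 2 without vitamin C left out the counts were 55 shorter (5.54%) and 49 longer (4.94%). That library covered 6.59 Mb in these regions, and the other 5 lists 12.1 to 15.8 Mb.

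Regions called in the 3 lists of one diet and in 0 of the other were few. With vitamin C only there were 4 of 3417 (0.117%), and without vitamin C only 3 (0.0878%). At gene level there were 3 with vitamin C only (0.0926% of the 3240 genes marked in any list) and 1 without it only (0.0309%). At equal length the regions were 20 of 1738 with vitamin C only (1.15%) and 10 without it only (0.575%), and the genes 18 of 1933 (0.931%) and 6 (0.31%). With replicate 2 without vitamin C left out, the full lists gave 5 regions with and 142 without vitamin C only, and the equal lists 23 and 22. Leaving out any other embryo in turn gave 5 to 23 regions with and 3 to 12 without vitamin C only, the 23 without replicate 2 with vitamin C. These counts are given without a test.

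The 4 regions called with vitamin C only stood at percentiles of 0.197 to 47.1 by total signal in their lists. At Shank3, a scaffold gene of excitatory synapses, the region (chr15:89495896-89503766) contains an annotated transcription start inside the gene. Peaks covered 7.87, 6.6 and 3.46 kb of it with vitamin C and 0 kb in each list without it. Shank3 as a whole was marked in 3 lists with and 2 without vitamin C, through other peaks at the gene's ends. The region at Nod1, which encodes a sensor of bacterial peptidoglycan (chr6:54941617-54946749), had 4.85, 4.31 and 3.34 kb covered with vitamin C and 0 kb without. By total signal the Shank3 peaks stood at percentiles 37.1, 17.6 and 0.197 of their own lists, and the Nod1 peaks at 32.3, 9.13 and 9.49.

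The other 2 of these regions hold no coding gene. One lies at the noncoding genes Gm31194 and Gm31317 (chr11:98293117-98300357), at percentiles 20.3, 3.43 and 25.6 of its lists. The other (chr8:120964971-120976089) is in the interval between Irf8, a regulator of myeloid cells, and Foxf1, a forkhead gene of lateral and visceral mesoderm, with percentiles 47.1, 13.2 and 29.7. Foxf1 itself was marked in all 6 lists, with peaks of 28.7, 27 and 25.9 kb with vitamin C and 26.7, 3.8 and 28.0 kb without. In the same interval a region at the noncoding gene Gm26878 (chr8:120879600-120897422) was in the equal lists of the 3 embryos with vitamin C and of 0 without, and in the full lists of 3 and 2. In B6 the region nearer Foxf1 was called in 2 of 3 lists with and 0 of 3 without vitamin C, and that at Gm26878 in 1 and 0. No share over all regions was computed for B6, so these counts stand alone.

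The genes marked with vitamin C only were Fcho1, Panx2 and Ino80e. At Fcho1, an early factor of clathrin-mediated endocytosis, the calls turn on the edge of a domain beside the gene's lower coordinate (gene at chr8:71708387-71729330). Its peak of 36.9, 36.0 and 37.2 kb ended inside the gene with vitamin C, at 71710392, 71710874 and 71711054 on chromosome 8. Without vitamin C the nearest peaks ended at 71706465, 71703878 and 71705712, which is 1.92, 4.51 and 2.67 kb short of the gene. That the 2 groups of edges did not overlap follows from the choice of Fcho1, which was named for being marked with vitamin C only. It is therefore no separate observation. In each of the 6 lists the nearest peak came within 4.51 kb of the gene. With a gene window of 2.5 kb the gene was marked in 3 lists with and 1 without vitamin C.

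Panx2, a pannexin channel gene of the brain, shows how the window sets a call. Peaks covered 14.5, 12.3 and 10.6 kb of the gene body with vitamin C and 5.51, 0 and 9.3 kb without. The gene was therefore covered in part in 5 of 6 lists, and the embryos with vitamin C had the longer stretches. Panx2 too was named for being marked with vitamin C only. That choice favours longer stretches with vitamin C, so their order is no separate observation. Ino80e, a subunit gene of the INO80 chromatin remodeller, had a peak 0.071, 0 and 0.099 kb from the gene with vitamin C and 144.0, 766.0 and 1.56 kb from it without. Its peaks stood at percentiles 22.3, 9.63 and 2.03 by total signal, and in equal lists it was marked in 0 lists of either diet. In B6, Fcho1 and Panx2 were each marked in 2 lists with and 0 without vitamin C, and Ino80e in 1 and 0. No share over all genes was computed for B6, so these counts stand alone. Genes marked in all 6 lists of the main comparison could differ in B6 too. Pax3 and Irf8 were each marked there in 3 lists with and 1 without vitamin C, and Lipg in 1 and 2.

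Transcription starts were looked at one by one, since H3K27me3 domains tend to lie over CpG-rich promoters. RefSeq start sites on GRCm38.p6 were available for 17491 of 21883 protein-coding genes (21262 promoters, each taken from 250 bases before the start to 50 from it on). The start lay inside a peak in all 6 lists for 585 of them, and in 1 to 5 lists for 1929. The median number of CG dinucleotides was 19 in the first set, 20 in the second and 11.5 where the start lay in no peak, with at least 15 in 66.3%, 65.5% and 44.3%. Over all promoters it was 13, with at least 15 in 46.8%. CG reads the same on both strands. Starts inside a peak in the 3 lists with and 0 lists without vitamin C were 3 of the 2514 starts that lay in any peak (0.119%), and the reverse 0 (0.0%). They belong to Bcl11a, a zinc finger gene of neurons and blood cells, Bahd1, a gene of a heterochromatin protein, and Nfkb2, an NF-kappaB subunit gene. Their promoters hold 23, 45 and 25 CG, and the Shank3 start of the region above, which lay in a peak in 2 lists with and 0 without vitamin C, holds 40. These sequences were picked because their starts lay in peaks with vitamin C only, at Shank3 in just 2 lists. These starts were not tested, and capitals mark each CG. The positions are chr11:24080445-24080744 for Bcl11a, chr2:118901365-118901664 for Bahd1, chr19:46304487-46304786 for Nfkb2 and chr15:89499358-89499657 for Shank3, each on the plus strand.
Bcl11a: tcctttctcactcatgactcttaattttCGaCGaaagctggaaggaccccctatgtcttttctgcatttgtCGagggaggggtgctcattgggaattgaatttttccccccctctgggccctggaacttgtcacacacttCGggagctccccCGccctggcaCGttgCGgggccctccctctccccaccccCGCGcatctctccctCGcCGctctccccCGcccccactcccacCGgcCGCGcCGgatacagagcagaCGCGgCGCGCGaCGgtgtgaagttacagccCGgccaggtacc
Bahd1: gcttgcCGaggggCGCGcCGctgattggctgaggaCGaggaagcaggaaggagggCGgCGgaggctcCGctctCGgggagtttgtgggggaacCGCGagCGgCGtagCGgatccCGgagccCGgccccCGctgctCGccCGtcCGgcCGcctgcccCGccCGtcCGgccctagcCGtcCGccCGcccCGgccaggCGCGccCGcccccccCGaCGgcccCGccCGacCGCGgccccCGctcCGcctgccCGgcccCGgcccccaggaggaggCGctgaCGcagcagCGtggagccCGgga
Nfkb2: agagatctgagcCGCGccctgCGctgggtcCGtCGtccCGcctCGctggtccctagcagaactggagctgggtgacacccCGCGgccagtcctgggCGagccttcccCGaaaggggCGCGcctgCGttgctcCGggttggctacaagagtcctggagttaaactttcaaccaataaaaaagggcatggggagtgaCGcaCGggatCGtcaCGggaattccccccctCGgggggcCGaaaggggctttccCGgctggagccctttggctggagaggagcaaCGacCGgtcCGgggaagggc
Shank3: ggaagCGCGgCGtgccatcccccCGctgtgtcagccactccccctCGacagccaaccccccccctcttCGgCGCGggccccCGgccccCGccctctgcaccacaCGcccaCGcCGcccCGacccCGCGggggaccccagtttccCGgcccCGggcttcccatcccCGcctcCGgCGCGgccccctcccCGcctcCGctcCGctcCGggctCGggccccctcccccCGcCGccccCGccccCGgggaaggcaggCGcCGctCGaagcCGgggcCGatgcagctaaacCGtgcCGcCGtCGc

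As whole genes the 3 were marked in lists of both diets. Nfkb2 was marked in all 6 lists, with peaks of 26.8, 23.5 and 15.8 kb with vitamin C and 24.7, 6.57 and 22.6 kb without, and the starts of 2 other transcripts of it lay in peaks in 3 lists with and 2 without. Bahd1 was marked in 3 lists with and 2 without vitamin C. Bcl11a was marked at its ends in 2 and 1.

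The 3 regions called without vitamin C only were all of repeated or unplaced sequence. The longest is the array of 5S ribosomal RNA genes on chromosome 8 (chr8:123536023-123626858, 90.8 kb), which encode an RNA of the large ribosomal subunit. It overlaps 52 annotated genes, 48 of them ribosomal RNA genes, and the tip of Gas8, a gene of the regulatory complex of motile cilia, which is why Gas8 was the gene marked without vitamin C only. Peaks covered 90.8, 76.4 and 90.0 kb of the array without vitamin C and 0 kb in each list with it. By total signal they stood at percentile 100 in each of the 3 lists. Unlike the regions seen with vitamin C only, this feature was among the strongest of its lists, also in the shortest one. In B6 it was called in 3 lists of either diet, at percentile 100 in each.

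The other 2 lie on the unplaced scaffold GL456370.1, at bases 1 to 183 and 18716 to 19139. They are 0.183 and 0.424 kb wide and stood at percentiles of 99.1 to 99.9 by maximum signal without vitamin C. A neighbouring stretch of the scaffold, bases 26288 to 26605, was called in all 6 lists. Its percentile by total signal was 34.9, 42.9 and 28.0 with vitamin C and 70.9, 71.9 and 71.1 without. Asmt, the gene of the last enzyme of melatonin synthesis, carried a peak of about the same size in all 6 lists (chrX:170672649-170673671), at percentiles 16.5, 15.5 and 17.7 with and 56.3, 59.3 and 57.0 without vitamin C. Mid1-ps1, a pseudogene on the Y chromosome, was called in 1 list with (percentile 5.98) and 3 without vitamin C (83.1, 35.7 and 65.4). The 1 call with vitamin C was in a library labelled female and the male of that diet had none, so these calls do not tell the sex of an embryo. By total signal the scaffold stretch and Asmt thus ranked higher in each list without vitamin C than in each list with it. By maximum signal the diets overlapped, with Asmt at percentiles 99.6, 99.3 and 99.4 with and 99.7, 99.4 and 99.7 without, and the scaffold stretch at 99.8 to 99.9 in both. Ranks from lists of different lengths show no change by themselves, and reads of near-identical copies cannot be placed with certainty, so these values are uncertain. The scaffold and Asmt were singled out after their values had been seen. In B6 the Asmt percentiles were 98.0 and 21.3 in 2 lists with vitamin C, with no call in the remaining one, and 66.7, 29.0 and 21.0 without.

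At equal length the 20 regions called with vitamin C only were all present in full lists of both diets, and 19 of them were missing from the full list of replicate 2 without vitamin C alone. The 10 widest with vitamin C only lay at Pou2f2, a POU factor gene of lymphoid and neural cells (chr7:25129821-25158204), at Gm26878 as given above, at the potassium channel genes Kcnj9 and Kcnj10, at Neurl1b, a regulator of Notch ligands, and in a stretch near Tent4a. The others lay at Hcn3 and Pklr, a pacemaker channel and a pyruvate kinase gene, at Gm38751 and Plut, noncoding genes near the homeobox gene Gsx1, at Cd248, at Dgkz, and at Mroh6 and Naprt. In the full lists the Pou2f2 region was called in 3 lists with and 1 without vitamin C, at percentiles 84.6, 40.5 and 47.1 with and 35.4 in the list without. Each of the other 9 was called in the full lists of 3 embryos with and 2 without. Kcnj9 had peaks of 20.4, 6.14 and 7.18 kb with vitamin C and 5.59 and 6.14 kb in the lists without that held one. Of the genes named by the equal lists, Otop2 and Otop3, proton channel genes, shared a peak that at Otop2 was 41.1, 27.4 and 6.15 kb wide with vitamin C and 5.92 and 6.91 kb in 2 lists without.

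Without vitamin C only, the equal lists added Lipg (an endothelial lipase), Fosl2 (an AP-1 subunit), Sdk1 (a synaptic adhesion molecule), Col26a1 (a collagen), Dock8 (a guanine nucleotide exchange factor of immune cells), Mmp28 (a matrix metalloproteinase), Mid1-ps1, Asmt and a stretch at chr4:101311305-101315522. In the full lists Lipg, Fosl2, Sdk1, Col26a1, Mmp28 and Asmt were called in 3 lists of both diets, and Dock8 and the stretch on chromosome 4 in 2 with and 3 without. At Lipg the peaks were 8.02, 7.0 and 5.39 kb wide with and 7.64, 3.75 and 7.43 kb without vitamin C, so the equal lists parted peaks of overlapping width by their rank.

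Genes of 16 lists were then counted, lists that were written with earlier results of these data known. The housekeeping list checked the calls, with 0 of 30 members marked in any of the 6 lists. Over all 3240 genes marked in any list, 1037 (32.0%) were marked in fewer lists without than with vitamin C and 597 (18.4%) in more. At equal length they were 703 (36.4%) and 268 (13.9%) of 1933. The median difference was 0 lists in every gene list and over all genes. With replicate 2 without vitamin C left out, 319 genes were marked in a lower share and 1260 in a higher share of lists without vitamin C. In the equal lists the numbers were 366 and 345, so the balance over all genes was near even at equal length. Counts by gene list with that library left out come from full lists unless stated, and stand beside the 319 and 1260. Shares are then of 3 lists with and 2 without vitamin C. A gene marked in 1 list of each diet thus counts as higher without it.

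Forebrain and anterior neural plate genes had 12 of 34 ever-marked members (35.3%) in fewer lists without vitamin C and 0 in more, beside the 32.0% over all genes. Their share of marked members was 97.1%, 74.3% and 80% with and 80%, 54.3% and 77.1% without vitamin C, and the groups overlapped. The difference in means of -13.3 percentage points was -5.24 without replicate 2 of the diet without vitamin C and -6.67 without replicate 1 of the diet with it. With replicate 2 without vitamin C left out, 7 members were marked in a lower and 3 in a higher share of lists without vitamin C. At equal length, again without that replicate, they were 5 and 4, beside 366 and 345 over all genes. In the equal lists of all 6 embryos, 9 of 31 (29.0%) were in fewer and 2 in more. Over all genes 36.4% were in fewer there, so the equal lists did not set these genes apart. Sox2, Zic5, Irx3 and Irx5, regulators of neural progenitors and of their pattern along the axes, had the mark in replicate 1 with vitamin C alone, the list with the greatest covered length. At Sox2 that peak lay 0.231 kb from the gene and was 21.7 kb wide, and in 4 of the other lists the nearest peak lay 3.29 to 7.38 kb away. Near Irx3 a peak lay 1.26 kb away in replicate 3 with and 1.01 kb in replicate 3 without vitamin C. For Irx5 these distances were 1.68 and 1.71 kb, so both genes had peaks of both diets just outside the 1 kb window.

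Otx2 and Zic2 differed most in this list. Otx2, a homeobox gene that the forebrain and midbrain need, was marked with vitamin C in replicate 1 (peak of 8.87 kb, percentile 13.5) and replicate 3 (5.14 kb, percentile 0.237), and in 0 lists without. In the remaining 4 lists the nearest peak was 1280.0 to 2260.0 kb away. In the equal lists Otx2 was marked in 0 lists of either diet. Zic2, a zinc finger gene needed for neural tube closure and forebrain midline, was marked in 3 lists with (14.3, 7.01 and 6.09 kb) and 1 without vitamin C (11.3 kb), also at equal length. The peak nearest to it lay within 0.541 kb of the gene in the 3 embryos with vitamin C, and 0.381, 3.69 and 1.41 kb from it in those without. All 6 embryos thus had a peak within 3.69 kb of Zic2.

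The anterior genes also served as a check of the tissue. Rax, Lhx2 and Sox1 were marked in all 6 lists, Six3 in 5 and Sox3 in 2 of each diet, Sox2 in 1, Otx2 in 2 and Hesx1 in 0. Lhx2 peaks were 41.6, 10.4 and 31.0 kb wide with vitamin C and 30.8, 5.91 and 31.3 kb without. Presence of the mark does not measure expression, and in a mixed tissue a gene can be active in some cells and marked in others.

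Dorsal neural tube and neural crest genes had 6 of 32 ever-marked members (18.8%) in fewer lists without vitamin C and 3 in more. Their share was 87.9%, 81.8% and 87.9% with and 90.9%, 66.7% and 93.9% without vitamin C. Of both diets' values the highest pair came without vitamin C. Snai2, the Slug gene of migrating neural crest, was marked in replicates 1 and 3 without vitamin C (3.38 and 3.28 kb, percentiles 5.0 and 13.6) and in 0 lists with it. Sox10 and Twist1, factors of neural crest and mesenchyme, were marked in all 6 full lists and in 1 equal list with and 3 without vitamin C. At Sox10 the peaks stood at percentiles 46.5, 56.7 and 40.5 with and 61.6, 44.3 and 59.1 without, so the groups overlapped. Pax3 was marked in all 6 lists, with peaks of 20.7 to 35.5 kb in 5 of them and 14.2 kb in replicate 2 without vitamin C.

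Ventral neural tube and floor plate genes had 5 of 18 members (27.8%) in fewer lists without vitamin C and 0 in more. They were Shh, the signal of the floor plate, Foxa2, Nkx6-1, Dbx2 and Ptch1, the Shh receptor, and each was missing from replicate 2 without vitamin C alone. Shh peaks were 16.6, 13.5 and 13.3 kb wide with vitamin C and 16.7 and 15.7 kb in replicates 1 and 3 without. In replicate 2 without vitamin C a peak covered 6.95 kb of the Shh gene but stopped 1.6 kb short of its nearer end. With that replicate left out, 0 ventral genes had a lower and 1 a higher share of lists without vitamin C, and the dorsal genes had 1 and 4. At equal length the ventral genes had 1 and 2 and the dorsal genes 1 and 3. Ptch1 was marked in 2 equal lists with and 0 without vitamin C. Midbrain and hindbrain patterning genes had 3 of 18 in fewer and 1 in more (16.7% and 5.56%), and neurogenic and neuronal genes 3 of 35 in fewer and 0 in more (8.57%). Without replicate 2 of the diet without vitamin C both turned, to 0 lower and 2 higher shares for the former and 0 and 3 for the latter. All genes turned the same way in full lists, to 319 and 1260. At equal length the 2 lists had 0 and 2, and 2 and 3.

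Genes of other tissues were counted in the same way. Heart, vessel and blood genes were marked for 18 of 23 members in every list but that of replicate 2 without vitamin C, which marked 16. Hand2, a regulator of heart and limb, had peaks of 50.2, 38.0 and 46.0 kb with and 44.7, 10.5 and 44.1 kb without vitamin C. Mesoderm, somite and muscle genes had 3 of 20 in fewer lists without vitamin C (15.0%) and 1 in more. That 1 was Mesp2, a somite segmentation gene, marked in replicates 1 and 3 without vitamin C (4.78 and 4.17 kb, percentiles 4.66 and 18.2) and in 0 with. Tbx18, a T-box gene of mesenchyme, was marked in 3 full lists with and 2 without, and in 2 and 0 equal lists. Endoderm genes had 2 of 15 in fewer and 0 in more (13.3%), and placode and surface ectoderm genes 2 of 19 each way (10.5%). Without replicate 2 of the diet without vitamin C the members with a lower and a higher share numbered 0 and 0 for the heart list, 0 and 1 for the mesoderm list, 0 and 1 for the endoderm list and 1 and 3 for the placode list.

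**Figure D4:**
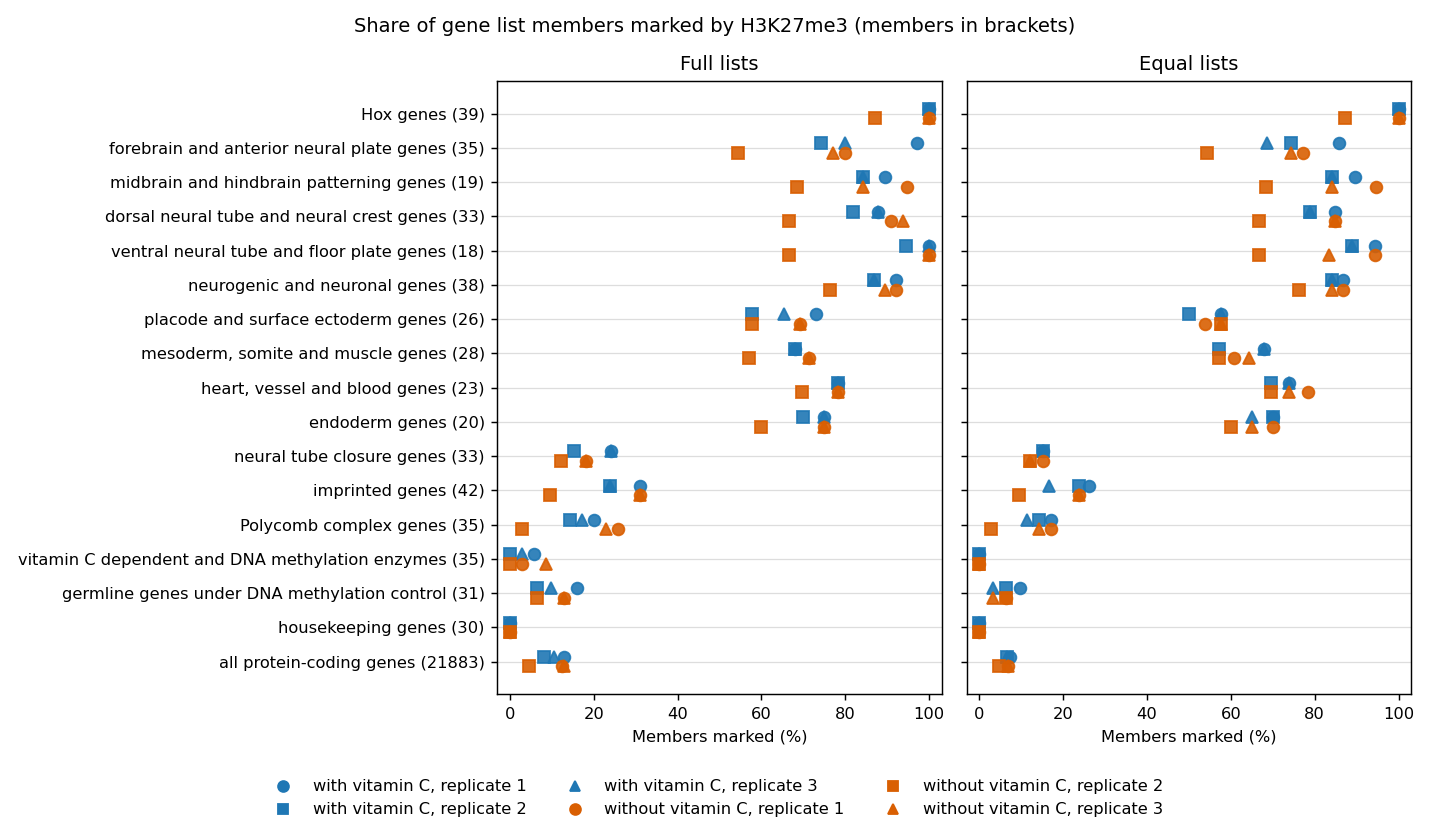
Share of the members of 16 gene lists, and of all protein-coding genes, that were marked in each list (x axis, percent), for full and equal lists, with the number of members in brackets. Replicate 2 without vitamin C (orange squares) lies lowest in most rows of the full lists, and the other lists of the 2 diets mix.

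Neural tube closure genes were marked in few members. Of 33, 24 were marked in 0 lists, among them the planar polarity genes Vangl2, Scrib and Ptk7, and 4 in all 6 lists, namely Grhl3, Pax3, Alx1 and Cdx2. Fewer lists without vitamin C marked 3 of the 9 ever-marked members (33.3%), and more marked 0. Over all genes these shares were 32.0% and 18.4%, so the share in fewer lists was near that of all genes. In the equal lists 1 of 5 (20.0%) was in fewer, beside 36.4% over all genes. Without replicate 2 of the diet without vitamin C, 3 had a lower and 2 a higher share in full lists. The 3 in fewer full lists were Zic2, Vangl1 and Celsr3, an atypical cadherin of planar polarity. Celsr3 was called marked in 2 lists with and 0 without vitamin C, but peaks covered 7.69, 0 and 6.57 kb of the gene body with and 5.21, 0 and 4.74 kb without it. Grhl3, a surface ectoderm factor of closure, had peaks of 12.1, 10.6 and 9.99 kb with and 10.6, 2.74 and 9.85 kb without vitamin C.

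Among genes tied to the enzymes that use vitamin C, the mark was rare in both diets. Of 35 vitamin C dependent and DNA methylation enzymes, 31 were marked in 0 full lists, including Tet1, Tet3, Dnmt1 and Gulo, and 0 of 35 in any equal list. Tet2 was marked in 1 list of each diet. P4ha2, a collagen prolyl hydroxylase gene, was the 1 member marked in more lists without vitamin C, in 1 against 0. Without replicate 2 of that diet, 0 had a lower and 4 a higher share, beside 319 and 1260 over all genes. Besides P4ha2 these were Tet2, Dnmt3a and P4ha3, each marked in 1 list of either diet. They count as higher only because 1 of 2 lists is a larger share than 1 of 3. Germline genes under DNA methylation control were marked for 5 of 31, with 1 in fewer and 1 in more lists (20.0% each), and Tdrd6 and Prdm14 in all 6. Without replicate 2 of the diet without vitamin C they had 1 lower and 2 higher.

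Polycomb genes themselves had 4 of 9 ever-marked members in fewer lists without vitamin C (44.4%) and 2 in more (22.2%), beside 32.0% and 18.4% over all genes. Cbx8, a chromobox gene of Polycomb repressive complex 1, was marked in all 6 lists, with peaks of 29.5 to 33.5 kb in 5 lists and 2.33 kb in replicate 2 without vitamin C. Epop, a gene of an accessory protein of the H3K27 methyltransferase complex, was marked in replicates 1 and 3 without vitamin C (4.73 and 3.2 kb, percentiles 8.99 and 19.5) and in 0 lists with it. Pcgf3, of a variant Polycomb repressive complex 1, had the same calls (4.05 and 5.76 kb, percentiles 6.34 and 28.2). With replicate 2 without vitamin C left out, 1 Polycomb gene had a lower and 4 a higher share of lists without vitamin C, and the imprinted genes had 0 and 4. Over all genes these numbers were 319 and 1260. At equal length the Polycomb genes had 1 and 1, and the imprinted genes 1 and 3. Ezh1, Ezh2, Eed and Suz12, the core of Polycomb repressive complex 2, were marked in 0 lists. Imprinted genes had 5 of 13 in fewer lists without vitamin C (38.5%) and 2 in more (15.4%), and Igf2, the growth factor gene, had peaks of 16.3, 15.1 and 14.9 kb with and 15.3 and 14.6 kb in replicates 1 and 3 without.

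Among the 992 shared regions, ranks of total signal within each list were compared, so that every list ranked the same regions. Total signal was summed over called peaks, so a rank can still follow how much of a region a list covers. No region passed an adjusted p of 0.05 (0 lower and 0 higher without vitamin C, 0.0%, limma on normal scores with Benjamini-Hochberg adjustment, lowest adjusted p = 0.732). At an unadjusted p below 0.05 there were 44 (4.44%), 18 lower and 26 higher without vitamin C. Ranks did not overlap between the diets at 63 regions that were lower (6.35%) and 58 that were higher (5.85%). Ranks correlated across regions at Spearman's 0.903 to 0.974 for the 10 pairs of lists without replicate 2 of the diet without vitamin C, and at 0.721 to 0.756 for its 5 pairs.

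Since none passed, the 10 largest differences per direction among the regions whose ranks did not overlap are described. At Mpzl2, an epithelial adhesion gene (chr9:45036466-45045192), the rank percentile among shared regions was 30.5, 32.6 and 32.2 with vitamin C and 5.6, 12.2 and 9.8 without. The difference was -0.88 ± 0.14 in normal scores (SE, limma adjusted p = 0.732). Of the 992 regions this one had the lowest unadjusted p, so its small spread within each diet came with the choice. Covered length there was 8.2, 7.6 and 8.2 kb with and 6.1, 3.6 and 8.1 kb without vitamin C. In B6 Mpzl2 was marked in 3 lists with and 1 without vitamin C, with no share over all genes computed for B6. Hhipl1, a relative of the hedgehog-interacting protein gene, stood at percentiles 20.5, 36.1 and 41.2 with and 11.7, 13.9 and 11.8 without (difference -0.69 ± 0.18, limma adjusted p = 0.846). Ptger4, a prostaglandin E2 receptor gene, stood at 12.2, 17.8 and 17.1 with and 7.7, 1.3 and 7.0 without vitamin C. Without replicate 2 of the diet without vitamin C these 3 differences were -0.97, -0.72 and -0.44. Their sign could not turn there, since the regions were chosen for ranks that did not overlap.

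The other 7 lower regions had differences of -1.26 to -0.71, and of -0.56 to -0.12 without that replicate. They lay at Zdhhc22, a palmitoyltransferase gene, at Epb41l1, a neuronal cytoskeleton gene, at Celf5, at Chpf with Obsl1 and Tmem198, at Lrg1 with Plin5 and Sema6b, at Adcy4 with Ripk3, and at Ccdc88b with Rps6ka4. At Celf5, an RNA-binding protein gene, the percentile was 83.4, 83.2 and 80.8 with vitamin C and 76.8, 2.0 and 77.5 without. The difference of -1.12 there was -0.19 without replicate 2 of the diet without vitamin C. At Zdhhc22 the percentiles were 44.6, 54.5 and 63.2 with and 37.5, 0.6 and 27.5 without vitamin C, and the difference of -1.26 was -0.56 without that replicate.

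Higher without vitamin C were Asmt and the scaffold stretch, at 1.57 ± 0.57 and 1.45 ± 0.49 (SE, limma adjusted p = 0.846 for both), with Abtb2, Ikzf1, Ccdc65, Tfap2b, Tfap2d, Lipg, Gm52310 with Zdhhc14, and a stretch of chromosome 17 without a coding gene (chr17:6474074-6483791). At Ccdc65, a gene of motile cilia, the percentile was 1.9, 10.9 and 3.9 with vitamin C and 17, 27.7 and 32.3 without (1.02 ± 0.25, limma adjusted p = 0.846). Lipg stood at 1.4, 2.2 and 4.1 with and 13.6, 14.5 and 9.6 without vitamin C (0.83 ± 0.16). At Ikzf1, the Ikaros gene of lymphoid cells, the values were 12.7, 7.5 and 1.2 with and 18.6, 48.6 and 21.2 without. Tfap2b and Tfap2d apart, these regions stood at percentiles of 0.1 to 28.3 with vitamin C, among the weaker of the shared regions. With replicate 2 without vitamin C left out the 10 differences were 0.54 to 1.15, where ranks that do not overlap fix the sign beforehand. Ranked by total signal per covered base, the difference turned to -0.36 at Ikzf1, -0.96 at Abtb2 and -0.00 at the scaffold stretch, and among the lower regions to 0.34 at Ptger4 and 0.51 at Lrg1.

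**Figure D5:**
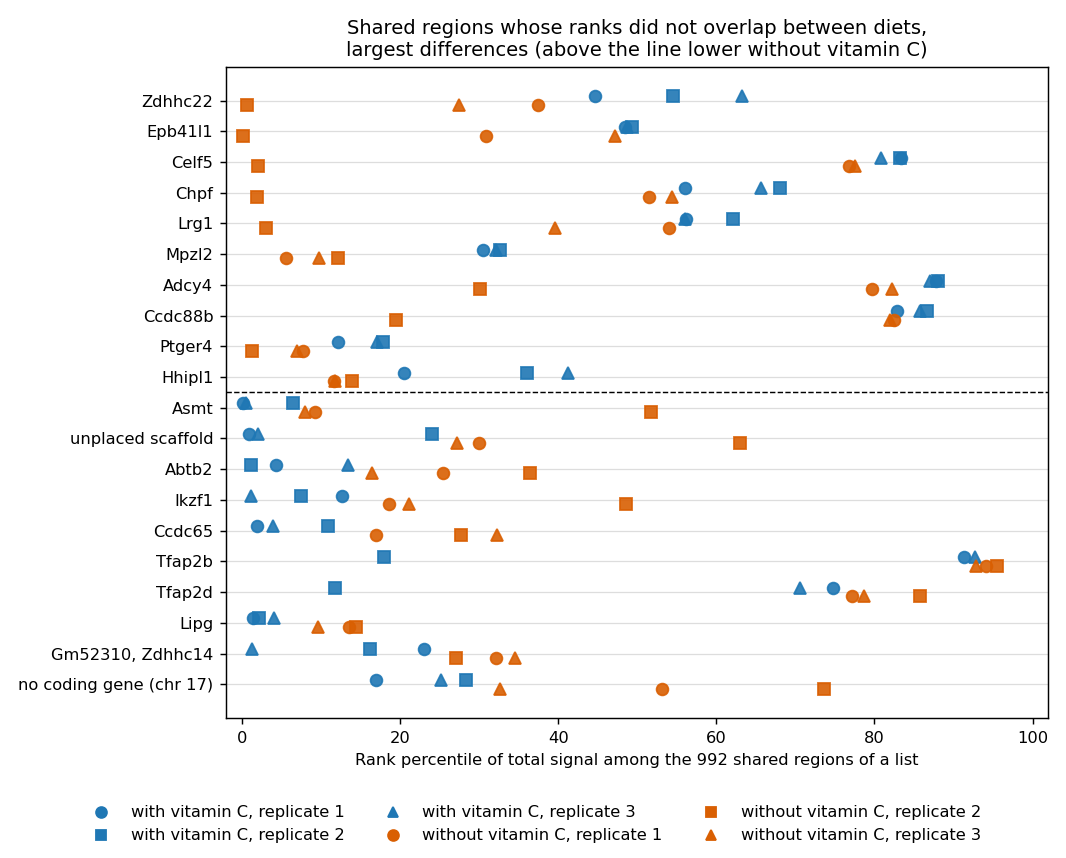
Rank percentile of total signal among the 992 shared regions (x axis) in each list, for the 10 regions per direction with the largest difference among those whose ranks did not overlap. At Mpzl2 the percentiles are 30.5 to 32.6 with and 5.6 to 12.2 without vitamin C, while at Celf5 (percentile 2.0) and Tfap2b (18.0) a single library stands away from the rest.

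Tfap2b and Tfap2d, neighbouring AP-2 genes of neural crest and midbrain, had a single low library with vitamin C. The Tfap2b region (chr1:19203248-19245647) stood at percentiles 91.3, 18.0 and 92.7 with vitamin C and 94.1, 95.5 and 92.9 without, and its covered length was 40.3, 6.5 and 32.0 kb with and 39.8, 22.2 and 35.6 kb without. Replicate 2 with vitamin C was more than 1 normal score below the median of the other lists at 27 regions and above it at 0, against 4 to 14 below in replicates 1 and 3 of its diet and replicates 1 and 3 of the other. Besides the AP-2 genes, its 10 largest drops lay at Foxd1, Runx1, Tbx18, Msx2, Adgre5 and Cck, and at 2 stretches without coding genes. Foxd1, a forkhead gene of mesenchyme and forebrain, stood at percentile 4.8 there and at 43.5 to 85.7 in the other lists, and Runx1, a blood regulator, at 0.5 and at 35.8 to 44.9. Replicate 2 without vitamin C was below at 82 regions and above at 49. The deepest of these lay at Msx2, Celf5 and Epb41l1, and Dlx5 with Dlx6, homeobox genes of the facial arches, stood at percentile 12.8 there and at 82.3 to 95.8 elsewhere. These regions were chosen after their values had been seen, and what sets the 2 libraries apart was not tested.

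Whether the diet difference was another one in B6 was tested at the 438 regions called in all 12 lists. 0 regions passed an adjusted p of 0.05 for diet by background (0.0%, limma, lowest adjusted p = 0.772), and 21 (4.79%) had an unadjusted p below 0.05. Without B6 without vitamin C replicate 4, 3 passed, namely Emx2, a forebrain homeobox gene, Cyp26b1, a retinoic acid hydroxylase gene, and Cbln1, a cerebellar synapse organiser gene (limma adjusted p = 0.0448, 0.00968 and 0.002). In that fit the difference in 129 was -0.16, -0.21 and 0.25 at the 3 regions and in B6 -1.45, -2.09 and -2.08, so the B6 values carried the contrast. With all 12 lists their adjusted p was 0.873, 0.805 and 0.772 (limma).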

How the data were processed

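Peak lists of H3K27me3 CUT&Tag were analysed from 6 headfolds of 129 embryos, 3 per diet, with 6 lists of B6 embryos for the test of diet by background. The submitters' processing notes name cutadapt, Bowtie2, Picard, SEACR and the mm10 build, while versions, settings and any use of IgG to set the threshold were not given in the sources used here. The deposited lists are of SEACR's stringent kind, 1 per library, and give each peak's position with the authors' total and maximum signal. These signal values were used as ranks within a list only, since ranks from lists of different lengths show no change. The 4 IgG samples and 2 further B6 samples were not analysed here. Read numbers are not in the lists, so depth is unknown and list length was used in its place. Replicate numbers follow accession order and pair nothing. The labels give each 129 embryo its own TP number, read as a pregnancy code, and the p-values measure the spread between these embryos.

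Peaks of the 6 lists were merged where they overlapped by at least 1 bp. Genes and promoters were taken from RefSeq tables on GRCm38.p6, in which 470 of 471 list genes were found and Peg1 was not. Single values per list were compared by exact permutation of the diet labels. Ranks of total signal among regions called in all lists were turned into normal scores and tested with limma (adjusted p below 0.05). Equal lists hold the peaks with the largest total signal of each list.

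The genes and regions named are those called or marked in 3 lists of one diet and 0 of the other (up to 10 per direction at equal length), the 10 widest shared regions, the 10 largest rank differences per direction among regions whose ranks did not overlap, and members of the gene lists. Repeated sequence, promoters, regions of single deviating libraries and examples from the lists were picked after their values had been seen. The members and lists were chosen with earlier results of these data known. R 4.3.3 with limma 3.58.1 and Python 3.11.15 with SciPy 1.17.1, pandas 2.3.3, NumPy 2.4.6 and Matplotlib 3.10.9 were used, and the scripts were tested on simulated data. Alternatives covered the gene window, peak width and strength, joined gaps, autosomes, overlap, equal lists, sex, the signal ranked and each library left out.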

Additional observations from a re-analysis of the deposited data

How the results depend on the processing

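Read depth is unknown, and 3 embryos per diet cannot give an exact permutation p below 0.1, so the values below are descriptions. Leaving out each replicate in turn, the log2 difference (without minus with vitamin C) ranged from -0.22 to 0.38 in peak number, from -0.75 to 0.21 in covered length and from -0.45 to 0.29 in marked genes, and the similarity within minus between diets from -0.0751 to 0.0452. The highest value of the first 3 came without replicate 2 of the diet without vitamin C. Peak number turned to 0.02 with peaks at or above the median maximum signal, and covered length to 0.02 with equal lists of the other 5 libraries, an alternative chosen after seeing the data.

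Counts for one diet only depended on most choices. Regions with vitamin C only were 8 where peaks had to cover 50% of the region, 20 in equal lists, 7 with peaks at or above the median maximum signal, 29 in equal lists of the other 5 libraries, and 5 to 23 with each replicate left out. Regions without vitamin C only were 10, 13 and 27 in equal lists, by maximum signal and in equal lists of the other 5 libraries, 1 with peaks of at least 1 kb, 1 on autosomes, and 3 to 142 with each replicate left out. Genes with vitamin C only were 9 with a window of 0 kb, 18 in equal lists, 8 by maximum signal, 26 in equal lists of the other 5 libraries, and 3 to 23 with each replicate left out. Genes without vitamin C only were 0 with a window of 0 kb, 0 around the transcription start, 6, 9 and 23 under those same 3 list settings, and 1 to 106 with each replicate left out. The cause was not tested.

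No alternative gave a shared region past the threshold in 129 (0 in each, limma, with 27 to 85 regions at an unadjusted p below 0.05), and the lowest adjusted p ranged from 0.391 to 0.967 with each replicate left out and was 0.0723, at Mpzl2, with library weights (limma, chosen after seeing the data). With total signal per covered base the rank difference turned at Lrg1 (0.51), Ptger4 (0.34), the scaffold stretch (-0.00), Abtb2 (-0.96) and Ikzf1 (-0.36). The other 249 values of named regions, over all alternatives, kept their direction and side. With a library left out the direction was fixed by the choice of regions whose ranks did not overlap. Diet by background gave 0 to 3 regions with each replicate left out, the 3 without B6 without vitamin C replicate 4. Of the list shares, 238 moved by less than the spread between embryos and 2 by more, to -17.9 points for Hox genes and 1.01 for neural tube closure genes, both with peaks at or above the median maximum signal. No paired analysis was possible because the labels of these samples carry no replicate numbers that pair embryos across diets.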
